A study of Homo sapiens with 6 samples.

Results

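BCL11B, LINGO1, PTPN13, HOOK1 and PRKCB are 5 genes of the super-enhancer list that the study assembled for Ewing sarcoma, 147 genes assigned to a super-enhancer in most of the cell lines it examined and in primary tumors as well. They were taken by symbol, as genes the study names beside super-enhancers, and make up 5 of the 27420 genes in the deposited expression table. All 5 are listed above 1 FPKM (fragments per kilobase of transcript, scaled to the size of the library) in every library, so none was lost to the filter on low values. RNA was sequenced from the human Ewing sarcoma lines A673 and SKNMC (the titles of the samples spell the second line SKMNC) treated for 6 h. Each line was given the solvent DMSO, THZ1 at 50 nM (the low dose) or THZ1 at 200 nM (the high dose); THZ1 is a covalent inhibitor of the kinase CDK7. Every condition has 1 library, and each line is 1 established cell line, so no difference could be set against a replicate error within a condition, and no test was run. The Ewing sarcoma markers CD99, NKX2-2, NR0B1, STEAP1, LIPI, FLI1 and EWSR1 all exceeded 1 FPKM in both DMSO libraries, from 14.8 FPKM (NKX2-2) to 504 FPKM (CD99) in A673 and from 25.2 FPKM (NR0B1) to 313 FPKM (CD99) in SKNMC, and a level per gene does not show the EWS-FLI1 fusion itself.

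Enhancers that lie close together and carry unusually strong acetylation of histone H3 are grouped as super-enhancers, and the genes beside them are often ones that a given tissue uses heavily. In Ewing sarcoma many of them are bound by the fusion protein EWS-FLI1, whose FLI1 part recognises the ETS core GGAA and binds repeats of it far from promoters. CDK7 is the kinase of the general transcription factor TFIIH; it phosphorylates the tail of RNA polymerase II and activates other kinases of the transcription cycle. The 5 genes have unlike roles: BCL11B is a zinc finger transcription factor known from T cell and neuronal development, LINGO1 is a leucine-rich repeat protein of the cell surface that joins the Nogo receptor complex of neurons, PTPN13 is a large protein tyrosine phosphatase with FERM and PDZ domains, HOOK1 is a coiled-coil adaptor that links cargo to the dynein motor, and PRKCB is a classical protein kinase C that responds to calcium and diacylglycerol.

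In hg19, the build of the deposited table, BCL11B (ENSG00000127152) lies on the minus strand at chr14:99635624-99737861, LINGO1 (ENSG00000169783) on the minus strand at chr15:77905369-78113242, PTPN13 (ENSG00000163629) on the plus strand at chr4:87515468-87736324, HOOK1 (ENSG00000134709) on the plus strand at chr1:60280458-60342050 and PRKCB (ENSG00000166501) on the plus strand at chr16:23847322-24231932. All 5 are protein-coding, and their spans run from 61.6 kb (HOOK1) to 385 kb (PRKCB), while the median span of active genes, those above 1 FPKM with DMSO, was 31.7 kb in both lines. In GENCODE release 44 on GRCh37 the representative transcript has 4 exons for BCL11B, 2 for LINGO1, 48 for PTPN13, 22 for HOOK1 and 17 for PRKCB. That of LINGO1 covers chr15:77905369-77925254 alone, so most of the span of LINGO1 comes from its longer transcripts. The FPKM values are sums per gene and do not show which transcript or start was used.

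Since EWS-FLI1 recognises GGAA, the promoters of the genes were read for these letters. RefSeq gives 1 start each for BCL11B, PTPN13, HOOK1 and PRKCB and 9 for LINGO1, and each window of 300 bases (250 before to 50 after the start, GRCh38.p14) was found at 1 place in GRCh37. Below, 4 windows are written 5′ to 3′ on the strand of the gene, with GGAA and its reverse TTCC in capitals: BCL11B and PRKCB, the genes with the lowest and the highest mean change over the 4 comparisons with DMSO, LINGO1 at the start that coincides with the start of the deposited gene, and PTPN13, whose window also holds the upstream end of the listed span of a neighbour on the other strand.
BCL11B, chr14:99738485-99738784 (GRCh37), minus strand: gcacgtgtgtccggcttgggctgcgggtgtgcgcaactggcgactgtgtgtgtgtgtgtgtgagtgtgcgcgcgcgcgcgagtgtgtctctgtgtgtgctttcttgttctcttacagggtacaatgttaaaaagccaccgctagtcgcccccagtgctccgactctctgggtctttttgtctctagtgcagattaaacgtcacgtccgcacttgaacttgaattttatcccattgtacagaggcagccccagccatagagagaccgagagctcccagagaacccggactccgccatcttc
LINGO1, chr15:78113193-78113492 (GRCh37), minus strand: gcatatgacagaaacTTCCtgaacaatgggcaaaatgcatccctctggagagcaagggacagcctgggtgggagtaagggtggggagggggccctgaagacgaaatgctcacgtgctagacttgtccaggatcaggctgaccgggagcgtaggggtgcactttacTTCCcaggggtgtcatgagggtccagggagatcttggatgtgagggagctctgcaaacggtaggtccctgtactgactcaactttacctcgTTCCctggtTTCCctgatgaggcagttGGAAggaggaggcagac
PTPN13, chr4:87515218-87515517 (GRCh37), plus strand: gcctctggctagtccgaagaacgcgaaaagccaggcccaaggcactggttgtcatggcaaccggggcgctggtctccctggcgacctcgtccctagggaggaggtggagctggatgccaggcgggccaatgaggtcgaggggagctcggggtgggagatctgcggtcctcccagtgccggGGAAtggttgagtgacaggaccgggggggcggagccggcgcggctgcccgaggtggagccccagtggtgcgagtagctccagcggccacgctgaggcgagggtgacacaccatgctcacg
PRKCB, chr16:23847054-23847353 (GRCh37), plus strand: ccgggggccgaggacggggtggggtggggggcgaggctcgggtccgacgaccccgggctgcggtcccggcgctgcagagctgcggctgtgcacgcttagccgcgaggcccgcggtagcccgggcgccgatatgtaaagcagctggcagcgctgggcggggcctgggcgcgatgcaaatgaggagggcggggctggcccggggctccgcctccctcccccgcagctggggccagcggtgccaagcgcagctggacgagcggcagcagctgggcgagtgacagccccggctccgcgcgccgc

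Counted on both strands, GGAA occurred 5 times in this LINGO1 window, 2 times in that of HOOK1 (not shown), once in that of PTPN13, and was not found in those of BCL11B and PRKCB. Over the other starts of LINGO1 the count ran from 0 to 5. None of its 9 starts lies at the upstream end of the representative transcript (77925254), and the nearest is at 77988490. The promoter of that transcript was thus not read. Among all 35116 promoter windows of the RefSeq table, 95.5% hold at least 1 GGAA, with a median of 3. The tandem GGAAGGAA was found in none of the 13 windows of the 5 genes and in 3.67% of all windows. The windows of BCL11B and PRKCB, at opposite ends of the order of mean changes, both lacked these letters, and they differed in base composition, with 55.7% G and C in BCL11B against 77.7% in PRKCB and a median of 58.7% over all windows. A match of letters is a description of the window and not a binding site.

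**Figure D1:**
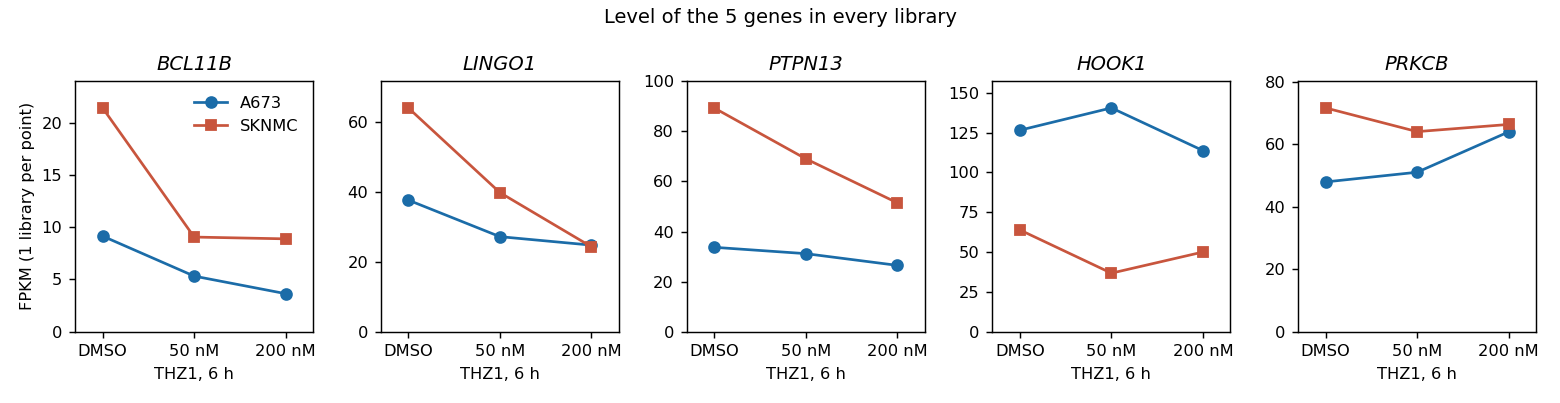
FPKM of the 5 genes (y axis, from 0, one scale per panel) in the 6 libraries, by THZ1 treatment (x axis) and line (blue circles A673, red squares SKNMC; 1 library per point, so no error bars). As deposited, BCL11B, LINGO1 and PTPN13 step down from DMSO to 50 nM to 200 nM in both lines. The last step of BCL11B in SKNMC is small (9.06 to 8.88 FPKM). HOOK1 is lowest in SKNMC at 50 nM (36.8 FPKM) and PRKCB is highest in A673 at 200 nM (63.9 FPKM) among the A673 libraries.

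Changes are given as log2((FPKM + 1) with THZ1 / (FPKM + 1) with DMSO) within a line, and a gene was counted as changed where this passed 2-fold. Of the 5 genes, 0 were at least 2-fold lower in A673 at the low dose, where 15.9% of the 11077 active genes were. At 200 nM in A673 it was 1 of 5, BCL11B, against 25.3% of active genes. In SKNMC at the low dose it was again BCL11B alone, 1 of 5, against 15.8% of the 11896 active genes, and at the high dose it was 2 of 5, BCL11B and LINGO1, against 27.3%. With 5 genes, 1 more or less moves the share by 20%, and the counts are read as near these shares. With a threshold of 1.5-fold the count was 1 of 5 (BCL11B) at either dose in A673, against 31.8% and 41.1% of active genes, and 3 of 5 at either dose in SKNMC, against 33.5% and 48%. LINGO1 in A673 at the high dose missed this threshold barely, at 1.4998-fold lower. It passed the threshold with 0.1 FPKM added in place of 1 (-0.602) and with libraries set to a common sum (-0.592). None of the 5 was at least 2-fold higher in any of the 4 comparisons, and among active genes it was 0.343% and 0.126% in A673 and 0.471% and 0.462% for SKNMC cells. From the low to the high dose, 0 of 5 passed 2-fold either way, where 7.44% of active genes in A673 and 8.39% in SKNMC were lower with the high dose and 0.117% and 0.37% were higher. The median log2 fold change of the 5 genes was -0.11 at the low dose and -0.34 at the high dose in A673, beside -0.27 and -0.40 over all active genes, and -0.67 and -0.78 in SKNMC, beside -0.32 and -0.55. Both doses of a line were compared with the same DMSO library, so an error in that library would enter both values.

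**Figure D2:**
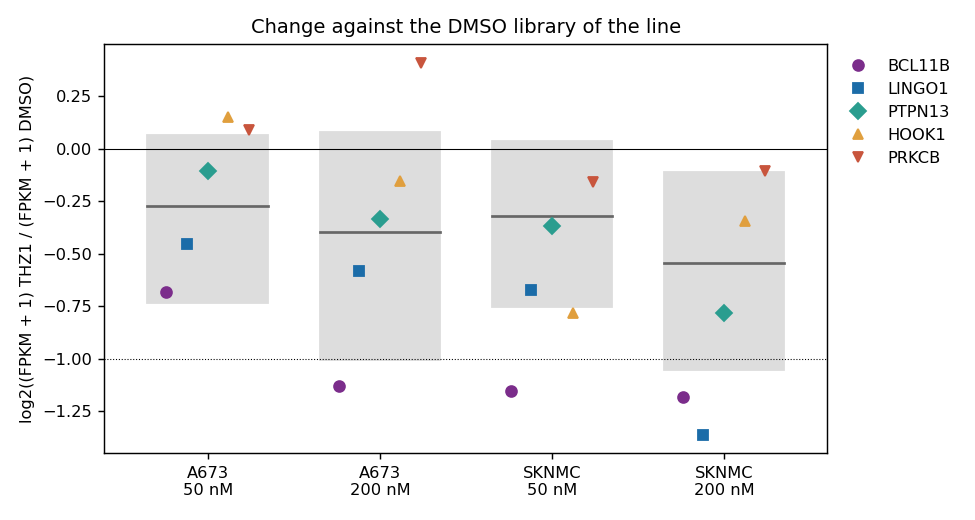
Log2 fold change of each gene (y axis, with 1 FPKM added) in the 4 comparisons with DMSO (x axis). Grey boxes run from the lower to the upper quartile of all active genes, with their median as a line, and the dotted line marks 2-fold. BCL11B lies below the box in all comparisons but A673 at 50 nM, LINGO1 in SKNMC at 200 nM and HOOK1 in SKNMC at 50 nM, while HOOK1 and PRKCB lie above it in A673 at 50 nM and PRKCB at 200 nM, barely so in SKNMC (-0.109 against an upper quartile of -0.110).

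FPKM gives each gene a share of its library, and fewer cells that express a gene cannot be told apart from less of its RNA per cell. Setting the 75th percentile of active genes equal between libraries moved the median change of all active genes up by 0.22 to 0.48, and setting the middle value of 83 ribosomal protein genes equal moved it by -0.19 to -0.47. BCL11B and LINGO1 were lower than DMSO in all 4 comparisons under all 3 scalings tried (common sum, 75th percentile, ribosomal protein genes). PTPN13 kept this direction with the common sum and with the ribosomal protein genes, while with the 75th percentile it was lower in SKNMC only, at -0.079 and -0.22. PRKCB was higher in all 4 with the 75th percentile, at 0.34 and 0.78 in A673 and 0.13 and 0.45 in SKNMC, and higher only in A673 at the high dose (0.062) with the ribosomal protein genes. HOOK1 was lower in SKNMC at the low dose under all 3, from -1.18 to -0.50, and its direction in the other comparisons flipped under at least 1 of them.

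**Figure D3:**
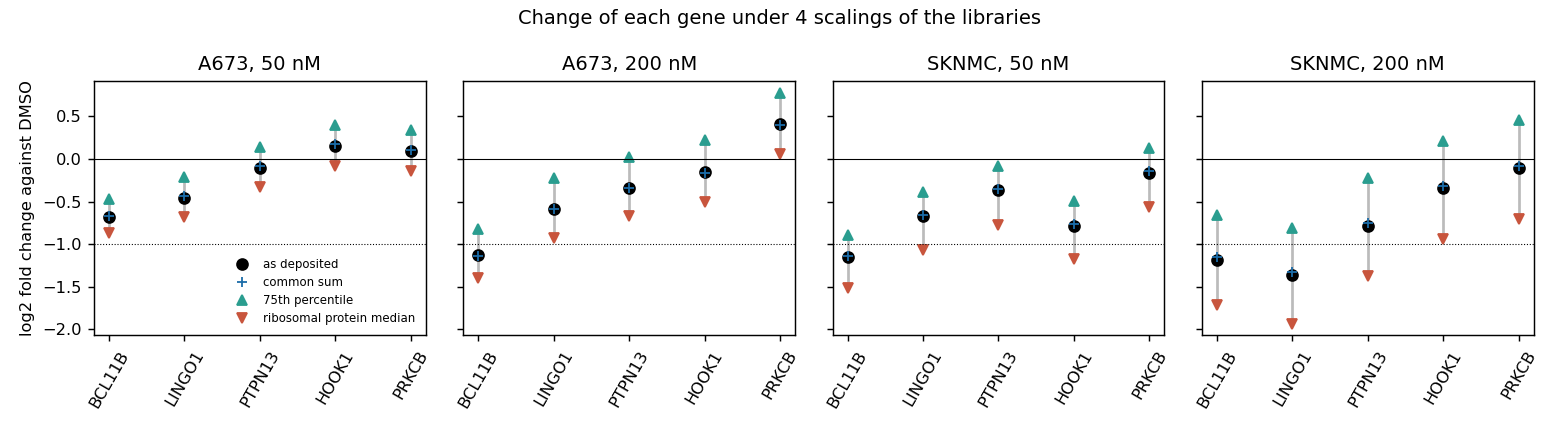
Log2 fold change against DMSO (y axis) of each gene (x axis) in the 4 comparisons, for values as deposited (black circles), libraries with a common sum (blue crosses), equal in the 75th percentile (green triangles) or equal in ribosomal protein genes (red triangles). The grey bars join the lowest and the highest of the 4 values and are not errors. BCL11B and LINGO1 stay below 0 throughout. A scaling shifts the 5 genes of a library nearly alike, so their order within a comparison is kept by construction.

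BCL11B was the least abundant of the 5 genes and the one with the lowest mean change. Its level in A673 was 9.15 FPKM with DMSO, 5.32 at the low dose and 3.64 at the high dose. SKNMC had 21.4 FPKM with DMSO, 9.06 at the low dose and 8.88 at the high dose. All 4 THZ1 values lay below the DMSO value of their line, and the highest of them, 9.06 FPKM in SKNMC, was close to that of A673 with DMSO. The log2 fold change was -0.68 at the low dose and -1.13 at the high dose in A673, and -1.16 and -1.18 in SKNMC. In SKNMC the value at the high dose was 98.1% of that at the low dose, so nearly all of the difference from DMSO was present at the low dose, whereas in A673 it was 68.4%. Among active genes, 11.4% were lower than BCL11B in SKNMC at the low dose and 20.4% at the high dose, and in A673 it was 27.2% and 21.5%.

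BCL11A, the paralog of BCL11B, was not expressed above 1 FPKM in either line (0.049 FPKM in A673 and listed at 0 in SKNMC with DMSO). BCL11B is known to recruit the NuRD complex, which joins the ATPases CHD3 and CHD4 with histone deacetylases and methyl-CpG-binding proteins. Of 13 active genes of the list made of BCL11A and NuRD subunits, 1 was at least 2-fold lower in each of the 4 comparisons, and none was at least 2-fold higher. That gene was MBD3 at the low dose in both lines (65.2 to 29.9 FPKM in A673, 42.0 to 17.3 FPKM in SKNMC), GATAD2B at the high dose in A673 and MBD2 at the high dose in SKNMC. The lowest mean change on the list was that of MBD3 and the highest that of CHD3, at 53.5 FPKM with DMSO and 85.0 FPKM at the high dose in A673 and 54.5 and 97.4 FPKM in SKNMC. The median of the list was 0.027 at the low dose and -0.41 at the high dose in A673, and 0.11 and -0.25 in SKNMC. All active genes had medians of -0.27 and -0.40 in A673 and -0.32 and -0.55 in SKNMC. Of them, 15.9% and 25.3% in A673 and 15.8% and 27.3% in SKNMC were at least 2-fold lower.

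Of the 12 listed genes within 500 kb of BCL11B, 4 were active, and all 4 lie on the side of higher coordinates, which on the minus strand is upstream of the gene. The nearest, SETD3, a histidine methyltransferase of actin, has its nearer end 126 kb away and went from 22.5 FPKM with DMSO to 14.2 at the high dose in A673 and from 25.5 to 13.9 in SKNMC. None of the 4 was at least 2-fold lower in any comparison, where 15.8% to 27.3% of all active genes were. BCL11B had the lowest log2 fold change of its neighbourhood in each of the 4 comparisons. By pattern over the 6 libraries, the closest of 7842 other protein-coding genes were MED1, a subunit of the Mediator complex, then SAP30L, a relative of a histone deacetylase complex subunit, and LRRC61, at distances of 0.29, 0.33 and 0.37 (root of the summed squared differences of log2(FPKM + 1), each gene centred on its mean over the 6 libraries). MED1 had 12.2, 7.42 and 5.05 FPKM in A673 and 27.9, 15.4 and 12.8 FPKM in SKNMC.

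LINGO1 stepped down with dose in both lines, further in SKNMC. In A673 it was at 37.7 FPKM with DMSO, 27.3 at the low dose and 24.8 at the high dose. In SKNMC the values were 64.1, 39.9 and 24.4 FPKM. As deposited, the lines differed 1.70-fold with DMSO and were within 2% of each other at the high dose, where SKNMC had 98.1% of the A673 level. The log2 fold changes were -0.45 and -0.58 in A673 and -0.67 and -1.36 in SKNMC, and 14.9% of active genes were lower than LINGO1 in SKNMC at the high dose. Between the doses, the SKNMC level at the high dose was 61.1% of that at the low dose and the A673 level was 91.1%. This step in A673 had a log2 fold change of -0.13 as deposited and -0.014 with the 75th percentile of active genes equal.

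LINGO1 acts with the Nogo receptor RTN4R and with NGFR or TNFRSF19. This complex binds myelin proteins such as RTN4, MAG and OMG, and signals through RHOA and its kinases ROCK1 and ROCK2. RTN4R, the ligand-binding subunit, had the lowest mean change on this list, with 5.03, 2.45 and 1.16 FPKM in A673 and 27.4, 11.6 and 2.95 FPKM in SKNMC. RTN4, the ligand, had the highest, with 181, 244 and 229 FPKM in A673 and 102, 127 and 107 FPKM in SKNMC. The coreceptor NGFR, named after its values were seen, was at 11.0, 10.1 and 11.5 FPKM in A673 and at 44.4, 40.0 and 50.5 FPKM in SKNMC. The paralog LINGO2 had 3.08 FPKM in A673 and 1.57 FPKM in SKNMC with DMSO, and LINGO3, LINGO4, MAG, OMG and TNFRSF19 were at or below 1 FPKM in both. The list also held RTN4RL1, active in A673 alone, and RTN4RL2, active in SKNMC alone. Of the 8 genes active in each line, 0 were at least 2-fold lower at the low dose and 3 at the high dose in A673. In SKNMC it was 1 and 2. The list had a median of -0.077 and -0.54 in A673 and -0.21 and -0.14 in SKNMC. Over all active genes the median was -0.27 and -0.40 in A673 and -0.32 and -0.55 in SKNMC. Of those genes, 15.9% and 25.3% in A673 and 15.8% and 27.3% in SKNMC were at least 2-fold lower.

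Within 500 kb of LINGO1, 6 of 14 listed genes were active. TBC1D2B, with a domain of Rab GTPase activators, lies 163 kb away on the side of higher coordinates and had 6.48, 7.22 and 6.20 FPKM in A673 and 13.2, 16.8 and 14.6 FPKM in SKNMC. TBC1D2B was above LINGO1 in log2 fold change in all 4 comparisons. The genes with the most alike pattern were SLC37A3, CD58 and MYD88, at distances of 0.25, 0.25 and 0.26.

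PTPN13 was the most abundant of the 5 genes in SKNMC with DMSO and stepped down with dose in both lines without passing 2-fold. A673 had 33.7 FPKM with DMSO, 31.2 at the low dose and 26.5 at the high dose. SKNMC had 89.3, 69.1 and 51.5 FPKM, and its lowest library was above all 3 of A673. The log2 fold changes were -0.11 and -0.34 in A673 and -0.37 and -0.78 in SKNMC, values near the median of all active genes (61.7% and 52.8% of active genes were lower than PTPN13 in A673, and 47.0% and 37.4% in SKNMC).

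PTPN13 binds the death receptor FAS and dephosphorylates ephrin-B proteins, and it belongs with PTPN3, PTPN4, PTPN14 and PTPN21 to the FERM-domain phosphatases. The list also held PLEKHA1, PLEKHA2, PDLIM4 and PKN2, of which PLEKHA2 alone was at least 2-fold lower at the high dose, in both lines. None of the active genes on this list was at least 2-fold lower at the low dose in either line. At the high dose 4 of 10 were at least 2-fold lower in A673 and 3 of 9 in SKNMC. Among all active genes it was 15.9% and 25.3% in A673 and 15.8% and 27.3% in SKNMC at the 2 doses. EFNB1, an ephrin-B ligand, had the lowest mean change, with 103, 58.9 and 23.9 FPKM in A673 and 116, 70.0 and 27.6 FPKM in SKNMC. FAS, named after its values were seen, had 16.1, 10.2 and 5.81 FPKM in A673 and 6.85, 3.29 and 1.01 FPKM in SKNMC. PTPN14 had the highest mean change, with 27.7, 43.5 and 22.0 FPKM in A673 and 16.4, 17.5 and 9.41 FPKM in SKNMC. Among the phosphatases PTPN13 was thus the most abundant in SKNMC with DMSO, beside 16.4 FPKM for PTPN14, 4.60 for PTPN4, 1.20 for PTPN3 and 0.17 for PTPN21. The median of the list was -0.49 and -0.90 in A673 and -0.40 and -0.83 in SKNMC, beside -0.27, -0.40, -0.32 and -0.55 over all active genes.

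PTPN13 and MAPK10, the JNK3 kinase, are transcribed away from each other, with 183 bases between their listed ends. The PTPN13 window printed above holds the start of PTPN13 and the upstream end of the listed MAPK10 span. Starts of single MAPK10 transcripts were not looked up, and which of them was used is not shown by these values. MAPK10 had 1.79, 1.74 and 2.59 FPKM in A673 and 2.62, 2.72 and 2.90 FPKM in SKNMC, with a log2 fold change of 0.36 in A673 and 0.11 in SKNMC at the high dose, where PTPN13 had -0.34 and -0.78. The level of PTPN13 with DMSO was thus far above that of MAPK10, and as deposited the signs of the pair were opposite at the high dose. On the other side C4orf36, 61.0 kb away, had 4.92, 2.11 and 3.79 FPKM in A673 and 6.18, 2.91 and 4.18 FPKM in SKNMC. Of the 4 active genes within 500 kb (7 listed), 0 were at least 2-fold lower at the low dose and 2 at the high dose in each line. The shares over all active genes were 15.9% and 25.3% in A673 and 15.8% and 27.3% in SKNMC. The most alike pattern was that of PTGER3, a receptor for prostaglandin E2, with 69.5, 63.5 and 53.4 FPKM in A673 and 166, 130 and 104 FPKM in SKNMC, at a distance of 0.13, followed by KIAA1147 and MYCBP2 at 0.24 and 0.26.

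HOOK1 was the most abundant of the 5 genes in A673 and the only one with a higher DMSO level there than in SKNMC. A673 had 126 FPKM with DMSO, 140 at the low dose and 114 at the high dose. SKNMC had 63.9 FPKM with DMSO, 36.8 at the low dose and 50.0 at the high dose, so the order of the doses was not the same as for the 3 genes above. In SKNMC the level at the high dose was 136% of that at the low dose, and 8.02% of active genes had a higher value in this comparison of the doses. The log2 fold changes were 0.15 at the low dose and -0.15 at the high dose in A673, and -0.78 and -0.35 in SKNMC. A673 exceeded SKNMC 1.98-fold with DMSO, and the gap was wider at the low dose, with 140.4 against 36.8 FPKM, than at the high dose, with 114 against 50.0 FPKM.

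HOOK2 and HOOK3, the other Hook adaptors, were far less abundant, at 2.99 and 4.11 FPKM in A673 and 5.70 and 5.41 FPKM in SKNMC with DMSO. Hook proteins bind AKTIP and FAM160A2 and activate the dynein-dynactin motor. Of the genes on this list active with DMSO, 0 of 11 were at least 2-fold lower at either dose in A673, and 0 of 12 at the low dose and 1 of 12 at the high dose in SKNMC. That gene was DYNC1LI1, a dynein light intermediate chain with the lowest mean change on the list, at 28.2, 25.1 and 8.42 FPKM in SKNMC and 48.0, 41.5 and 28.9 FPKM in A673. DCTN1, the large subunit of dynactin, had the highest, at 45.8, 53.0 and 56.4 FPKM in A673 and 41.2, 52.6 and 54.8 FPKM in SKNMC. The median of the list was -0.030 and 0.046 in A673 and -0.21 and -0.20 in SKNMC, beside -0.27, -0.40, -0.32 and -0.55 over all active genes. At least 2-fold lower were 15.9% and 25.3% of all active genes in A673 and 15.8% and 27.3% in SKNMC.

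HOOK1 stood alone at its locus in level. Of 5 listed genes within 500 kb, 2 were active in at least 1 line: FGGY, a carbohydrate kinase 47.1 kb away, with 0.81 FPKM in A673 and 2.18 FPKM in SKNMC with DMSO, and CYP2J2, an arachidonic acid epoxygenase 16.9 kb away, with 0.56 and 3.53 FPKM. At 200 nM these were at 1.63 and 2.54 FPKM for FGGY and at 0.36 and 1.95 FPKM for CYP2J2. By pattern over the 6 libraries FAM129A, ASAP1 and LMNB2 were the closest to HOOK1, at distances of 0.31, 0.36 and 0.39, and like HOOK1 they had more FPKM in every A673 library than in any of SKNMC.

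PRKCB stayed nearest to its DMSO level on average. A673 had 47.9 FPKM with DMSO, 51.0 at the low dose and 63.9 at the high dose. SKNMC had 71.6, 64.0 and 66.3 FPKM. As deposited, the lines differed 1.49-fold with DMSO and 1.04-fold at the high dose. The log2 fold changes were 0.089 and 0.41 in A673 and -0.16 and -0.11 in SKNMC. In A673 at the high dose 6.75% of active genes had a higher log2 fold change, and in SKNMC at the high dose it was 24.9%.

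PRKCB was the most abundant protein kinase C gene in both DMSO libraries. PRKCI, an atypical isozyme, came next with 26.6 FPKM in A673 and 25.8 in SKNMC, and PRKCA, the other classical isozyme in use, had 6.80 and 2.48 FPKM. PRKCZ, also atypical, had 0.31 FPKM in A673 and 7.01 in SKNMC. PRKCE, PRKCH and PRKCQ were below 1 FPKM in both. Of the 12 genes of this list that were active in at least 1 line, which holds the protein kinase C and D genes, the phospholipases PLCG1 and PLCG2, the receptor GNB2L1 and the substrates MARCKS and MARCKSL1, 1 of 10 was at least 2-fold lower at each dose in A673, and 0 of 12 and 1 of 12 in SKNMC. In A673 it was PRKD2, which had the lowest mean change, with 8.67, 3.78 and 3.72 FPKM there and 9.63, 4.94 and 4.40 FPKM in SKNMC. In SKNMC at the high dose it was PRKCD, an isozyme that does not need calcium, at 6.73, 3.87 and 1.32 FPKM. GNB2L1, the receptor for activated C kinase, had the highest mean change, at 880.5, 867 and 989.8 FPKM in A673 and 1119.8, 1265 and 1465 FPKM in SKNMC. The median of the list was -0.23 and -0.47 in A673 and -0.15 and -0.18 in SKNMC, beside -0.27, -0.40, -0.32 and -0.55 over all active genes. The share of all active genes at least 2-fold lower was 15.9% and 25.3% in A673 and 15.8% and 27.3% in SKNMC.

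The neighbourhood of PRKCB was the densest of the 5, with 14 of 20 listed genes active. PLK1, the mitotic kinase that is the nearest active gene on one side (146 kb), had 111, 70.9 and 44.9 FPKM in A673 and 106, 61.7 and 39.9 FPKM in SKNMC. CACNG3, a calcium channel subunit 34.9 kb away on the other side, had 1.01 FPKM in A673 and 0.068 FPKM in SKNMC with DMSO. Of the 14 active neighbours, 1 was at least 2-fold lower at the low dose and 2 at the high dose in A673, and 3 at each dose in SKNMC. For all active genes the shares were 15.9% and 25.3% in A673 and 15.8% and 27.3% in SKNMC. PALB2, the partner of BRCA2 in DNA repair, was chosen after its values were seen: 195 kb from PRKCB, it had 9.35, 1.63 and 0.56 FPKM in A673 and 11.0, 3.14 and 1.05 FPKM in SKNMC. The log2 fold change at the high dose in A673 was thus -2.73 for PALB2 and 0.41 for PRKCB, the widest gap between one of the 5 genes and an active neighbour in that comparison. The pattern of PRKCB had very close matches in MGAT4B, TMEM179B and CTBS, at distances of 0.061, 0.098 and 0.11, and 464 of the 10574 genes active in both lines (4.39%) shared its signs as deposited, higher in A673 and lower in SKNMC at both doses.

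**Figure D4:**
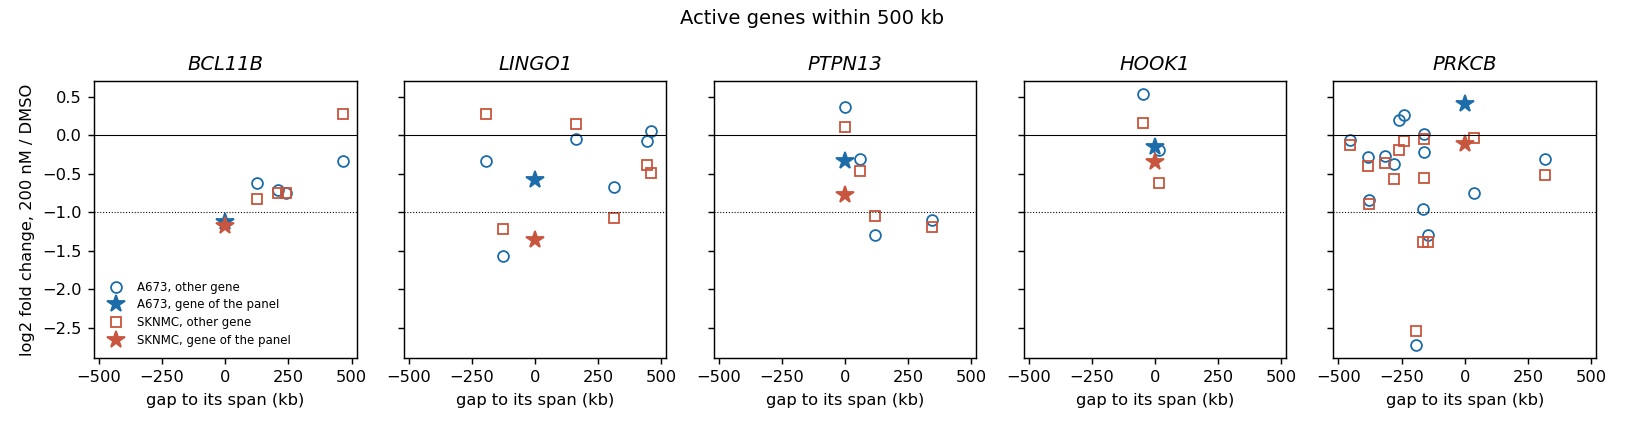
Log2 fold change at 200 nM THZ1 (y axis) of each gene (stars, at 0) and of the active genes within 500 kb (open symbols) against the gap between the spans in kb (x axis, negative on the side of lower coordinates), in A673 (blue) and SKNMC (red). BCL11B lies below its neighbours, PRKCB lies above its own in A673, and the lowest point in the PRKCB panel is PALB2.

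Side by side, BCL11B, LINGO1 and PTPN13 were lower in all 4 THZ1 libraries than in DMSO, and in both lines they followed the order DMSO above 50 nM above 200 nM. PTPN13 lost the direction in A673 with the 75th percentile equal (0.14 and 0.027). The order of BCL11B in SKNMC rests on a last step from 9.06 to 8.88 FPKM. With the 75th percentile equal, BCL11B in SKNMC was higher at the high dose than at the low dose (log2 fold change 0.23). Of the 10574 genes above 1 FPKM with DMSO in A673 and SKNMC alike, 52.9% had the first property and 27.5% the second. As deposited, the sign pattern of HOOK1, higher in A673 at the low dose and lower in the other 3 comparisons, was found for 231 genes (2.18%). Measured by distance over the 6 libraries, the most alike pair among the 5 was BCL11B and PTPN13 (0.83) and the least alike was PTPN13 and HOOK1 (3.12), whose levels in the lines were in opposite order. The 5 genes did not form one pattern.

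With DMSO alone, the order of the levels in A673 was HOOK1 (126 FPKM), PRKCB (47.9), LINGO1 (37.7), PTPN13 (33.7) and BCL11B (9.15), and in SKNMC it was PTPN13 (89.3), PRKCB (71.6), LINGO1 (64.1), HOOK1 (63.9) and BCL11B (21.4). Whether neighbours in these orders differ beyond replicate error cannot be said, and LINGO1 and HOOK1 in SKNMC differed by less than 1%. BCL11B and PTPN13 were at least 2-fold higher in SKNMC than in A673, 2 of 5, where 15% of the 12399 genes active in either line were, and 0 of 5 were at least 2-fold lower, against 8.42%. With ribosomal protein genes set equal, both were under 2-fold, at 0.71 for BCL11B and 0.93 for PTPN13 on the log2 scale, and HOOK1 was at least 2-fold lower, at -1.43. As deposited, the ratios of SKNMC to A673 were 2.34 for BCL11B, 2.65 for PTPN13, 1.70 for LINGO1 and 1.49 for PRKCB, and HOOK1 was at 0.505. At 200 nM, also as deposited, the ratios of LINGO1 and PRKCB were 0.981 and 1.04, and those of BCL11B and PTPN13 were 2.44 and 1.94. These ratios depend on the scaling as well. With ribosomal protein genes set equal, the 200 nM library of A673 is divided by 0.876 and that of SKNMC by 1.43. Each of these ratios would then be lower. By level with DMSO, all but BCL11B were well above the median of active genes: 74.6% to 94.3% of active genes in A673 and 89.1% to 92.8% in SKNMC were below LINGO1, PTPN13, HOOK1 and PRKCB. For BCL11B it was 37.4% in A673 and 64.9% in SKNMC.

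Within the list of 147 super-enhancer genes, of which 144 matched a listed gene, 139 were active in A673 and 141 in SKNMC. At the high dose, 59 genes of the list were at least 2-fold lower in each line, 42.4% in A673 and 41.8% in SKNMC, beside 25.3% and 27.3% of all active genes. At the low dose it was 22 genes (15.8%) in A673 and 31 genes (22.0%) in SKNMC, beside 15.9% and 15.8%. BCL11B had 50 of the 139 below it at the high dose in A673, LINGO1 72, PTPN13 91, HOOK1 104 and PRKCB 132. In SKNMC at the high dose it was LINGO1 with 34 of 141 below it, then BCL11B with 48, PTPN13 with 73, HOOK1 with 103 and PRKCB with 117. At the low dose in A673 the numbers below were 40 for BCL11B, 53 for LINGO1, 88 for PTPN13, 102 for PRKCB and 109 for HOOK1. In SKNMC at the low dose they were 24 for BCL11B, 39 for HOOK1, 47 for LINGO1, 71 for PTPN13 and 90 for PRKCB.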

How the data were processed

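RNA-seq values of 6 libraries, 1 per condition, were taken from the deposited table, and each column was assigned by its title. The table is titled as average expression while the labels give 1 sample per condition, so whether a value is 1 library or an average of several is not given in the sources used here; it was treated as 1 library. Per their methods the authors made TruSeq libraries, mapped paired reads of 100 bases with STAR (hg19) and estimated FPKM per Ensembl 75 gene with StringTie; the submitters' processing notes name STAR and Cufflinks. The deposited FPKM values cover 27420 genes, 20311 protein-coding and 7109 lincRNA; antisense genes of other biotypes are not listed, no listed gene overlaps the 5 genes, and use of the strand in counting is not given in the sources used here. The authors also deposited 4 columns of log2 fold changes, which were not used. FPKM holds no read counts: among low lincRNA values at most 4.49% shared one ratio between libraries, so no depth was inferred and no interval for counting error is given. The deposited starts count from 0 (1 below the GENCODE start for 9507 of 14343 genes with the same end) and 1 was added.

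Python 3.11.15 with pandas 2.3.3 was used. Log2 fold changes had 1 FPKM added; active genes exceeded 1 FPKM in the DMSO library of the line, and were counted as changed from 2-fold on. Without replicates no test was run. Named beside the 5 genes are, from lists of partner genes, the paralogs and the genes with the lowest and highest mean change; the nearest active gene on each side within 500 kb (some genes of these rules are not reported here); and the 3 genes of most alike pattern among protein-coding genes above 0 in all libraries and above 10 FPKM in at least 1. NGFR, FAS, GATAD2B, MBD2, PALB2 and RBBP6 were named in addition, after their values were seen. The 5 genes and the lists were chosen with earlier results of these data known. The counting of changed genes and the search for alike patterns were checked on simulated data, with planted changes well past the threshold and a planted pattern. The scalings, the lists, the neighbours and the promoter counts were not checked in this way. Alternatives were pseudocounts of 0.1 and 0.01 FPKM, 3 scalings, a 1.5-fold threshold and other sets of background genes.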

Additional observations from a re-analysis of the deposited data

Results flagged for a closer look

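HOOK1 at 50 nM THZ1 and PRKCB at both doses lay on opposite sides of their DMSO level in the 2 lines. These differences were not tested. At 50 nM THZ1 the log2 fold change of HOOK1 was 0.15 in A673 and -0.78 in SKNMC. At 200 nM it was below 0 in both lines, at -0.15 and -0.35. That of PRKCB was 0.089 in A673 and -0.16 in SKNMC at 50 nM, and 0.41 and -0.11 at 200 nM. For HOOK1 at 50 nM the value was higher in A673 under each of the 3 scalings, at 0.17, 0.40 and -0.079 against -0.77, -0.50 and -1.18 in SKNMC, and the opposite signs held under 2 of them. PRKCB was above DMSO in both lines with the 75th percentile of active genes set equal. With ribosomal protein genes set equal it was below DMSO in both lines at 50 nM, at -0.14 in A673 and -0.56 in SKNMC.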

How the results depend on the processing

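No library was left out, since each condition has 1, and no test was run, with or without pairing of the doses within a line. The pseudocounts of 0.1 and 0.01 FPKM and the common sum left the counts past 2-fold among the 5 genes as reported and moved their median by at most 0.1 on the log2 scale, while the share of active genes at least 2-fold lower was larger with a smaller pseudocount, with 0.1 FPKM at 21.6% and 31.1% in A673 and 22.5% and 34.3% in SKNMC at the 2 doses. The counts of partner and neighbour genes were not recomputed. With the 75th percentile of active genes, 0 of the 5 genes were at least 2-fold lower in A673 at 200 nM and in SKNMC at 50 nM and 200 nM, beside 17.3%, 10.3% and 13.4% of active genes under this scaling, and the median of the 5 genes was 0.14 and 0.027 in A673 and -0.39 and -0.22 in SKNMC at the 2 doses. With the ribosomal protein genes, 3 of the 5 were at least 2-fold lower in SKNMC at 50 nM and 3 at 200 nM, beside 28.0% and 51.1% of active genes under this scaling, and the medians were -0.33 and -0.67 in A673 and -1.07 and -1.37 in SKNMC. With a 1.5-fold threshold, 1 gene was lower in A673 at 50 nM and 3 in SKNMC at 50 nM. Of the other values, 27 moved with either of these scalings and 2 did not, and 1 moved with each pseudocount. Each scaling shifts the 5 genes of a library alike, and FPKM columns do not show which one is closest to the RNA per cell. With 1 library per condition and no read depth, no difference could be compared with its error.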

Other observations

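All 5 genes span at least 61.6 kb, as 30.3% of active genes in A673 and 30.5% in SKNMC do. Active genes of at least this span stood at -0.14 (A673) and -0.19 (SKNMC) in their median log2 fold change with the low dose, and shorter active genes at -0.34 and -0.39. At 50 nM, 7.09% of the long genes in A673 and 7.38% in SKNMC were at least 2-fold lower, beside 19.7% and 19.4% of the shorter ones. At 200 nM the medians were -0.40 for long and -0.39 for shorter genes in A673, and -0.48 and -0.59 in SKNMC.

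In the chromosomal surroundings of the 5 genes, RBBP6, a ubiquitin ligase that acts in RNA 3′ end processing, was named after its values were seen: 317 kb from PRKCB, its FPKM in A673 was 28.1 (DMSO), 70.0 (low dose) and 22.5 (high dose), and 30.2, 58.7 and 20.8 FPKM in SKNMC. It was above its DMSO level at the low dose and below it at the high dose in both lines.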
